A study of Mus musculus with 816 samples.

Results

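Primary mouse microglia, the resident macrophages of the brain, were given lipopolysaccharide (LPS) for 4 h and compared with the same cells after 24 h of LPS, to separate genes that are high early from genes that are high late. The cultures were chosen by their labels, LPS_hi alone for 4 h, which gave 7 of the 784 cultures among the 816 samples of the series. The cells were commercial microglia from neonatal mice, grown in 96-well plates and given the stimulus in fresh medium, and their sex is not given in the sources used here. LPS_hi was 0.0001 µg/µl in all groups that received it. The 7 cultures with 4 h of LPS were set against 18 with 24 h of LPS and 40 without stimulus (None) at 24 h. No untreated culture at 4 h was among the samples, so the untreated 24 h cultures served as the baseline level. The 14 cultures given the chemokines CCL2 (n = 7) or CCL7 (n = 7) at 0.0001 µg/µl for 4 h were used as a second reference with the same time in fresh medium. Groups that shared none of these 4 h LPS cultures were LPS with ATP, nicotine or norepinephrine for 4 h (n = 22), LPS with GABA, estradiol or minocycline for 24 h (n = 22), LPS for 72 h (n = 13) and untreated cultures at 72 h (n = 25). A last comparison used microglia of female C57BL/6 mice aged 2 months, 4 h after an injection of 2 mg/kg LPS (n = 4) or of PBS (n = 4), sorted with an antibody to CD11b.

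LPS is a component of the outer membrane of Gram-negative bacteria and is recognised by Toll-like receptor 4 (TLR4) together with CD14 and MD-2. The receptor acts through the adaptor MyD88, which leads to NF-kB and MAP kinases, and through TRIF, which leads to IRF3 and to the production of interferon beta. NF-kB raises cytokines and chemokines along with its own inhibitors, and secreted interferon beta acts back on the cells through the type I interferon receptor. In macrophages the transcripts of this program follow each other in waves, since some need only proteins that are already present and others need newly made factors or secreted mediators.

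Values are CPM, a gene's reads per 1e6 reads mapped in that culture, from 3′-end libraries. Depth ran from 1.20 to 13.7 M mapped reads (M for 1e6) in the LPS 4 h cultures and from 1.14 to 14.3 M in the LPS 24 h cultures. The LPS 4 h cultures had 6584 to 8180 genes over 5 CPM and the untreated ones 8096 to 9466. The 7 cultures came from 2 plates, called plates A (n = 3) and B (n = 4) here, and carried 2 different source identifiers, whose meaning is not given. The 18 LPS 24 h cultures came from 6 plates, of which 2 and 2 cultures were on plates A and B. The wells were separate samples, but nothing in the labels says that they held cells of different animals, so p-values measure the spread between wells. All 8 microglia markers checked were above 5 CPM on average in untreated cultures and 7 of them in LPS 4 h cultures, with summed levels of 3541 to 5037 CPM after 4 h of LPS, 1993 to 4564 CPM after 24 h and 4088 to 10490 CPM untreated. Markers of fibroblasts and pericytes summed to 24.9 to 579 CPM in the LPS 4 h cultures, with Dcn and Lum listed at 0, and to 1.27 to 235 CPM in the LPS 24 h cultures. The summed markers of astrocytes, oligodendrocytes, neurons, endothelial cells, neutrophils and lymphocytes reached at most 60.3 CPM in any LPS 4 h culture, and those of perivascular macrophages and monocytes summed to 40.8 to 142 CPM (median 65.3) there, 3.496 to 56.2 CPM (median 14.3) in LPS 24 h and 25.1 to 242 CPM (median 121) in untreated cultures, with Cd163, Lyve1 and Ly6c2 listed at 0 in all LPS 4 h cultures. Their part in the results below was not tested. In such bulk libraries fewer cells and less RNA per cell cannot be told apart.

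The start regions of 6 genes are shown first as examples from the time courses described below. Cxcl2 and Cxcl10 were highest at 4 h, Ifit1 was higher at 4 h than at 24 h, Nfkbia and Il6 were high at both times, and Saa3 was highest at 24 h. Each sequence holds the 250 bases before the start of transcription in RefSeq, on GRCm38.p6, written 5′ to 3′ in the direction of transcription. Capitals mark matches, on either strand, to an NF-kB motif (GGG and TTTCC with any 2 bases between), an interferon-stimulated response element or ISRE (GAAA and GAAA with any 2 bases between) or an AP-1 motif (TGA and TCA with any base between), and no 2 different motifs overlapped in these windows. Cxcl2 lies on chr5:90903649-90903898 (+), Cxcl10 on chr5:92348890-92349139 (-), Ifit1 on chr19:34640639-34640888 (+), Nfkbia on chr12:55492648-55492897 (-), Il6 on chr5:30012864-30013113 (+) and Saa3 on chr7:46715677-46715926 (-).
Cxcl2: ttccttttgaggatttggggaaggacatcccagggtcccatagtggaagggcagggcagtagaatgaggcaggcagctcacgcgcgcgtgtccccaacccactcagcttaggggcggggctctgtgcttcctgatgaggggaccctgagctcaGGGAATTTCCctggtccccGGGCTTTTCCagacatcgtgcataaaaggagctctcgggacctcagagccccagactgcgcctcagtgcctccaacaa
Cxcl10: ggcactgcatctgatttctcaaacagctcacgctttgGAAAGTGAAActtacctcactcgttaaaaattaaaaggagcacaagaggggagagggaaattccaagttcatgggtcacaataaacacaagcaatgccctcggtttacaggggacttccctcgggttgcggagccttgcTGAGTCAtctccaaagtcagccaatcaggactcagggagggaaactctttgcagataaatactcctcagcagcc
Ifit1: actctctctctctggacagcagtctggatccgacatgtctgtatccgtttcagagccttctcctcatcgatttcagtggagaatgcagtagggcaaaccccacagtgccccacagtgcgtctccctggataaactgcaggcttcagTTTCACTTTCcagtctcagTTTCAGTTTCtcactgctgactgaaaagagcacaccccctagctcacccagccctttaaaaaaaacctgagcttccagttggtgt
Nfkbia: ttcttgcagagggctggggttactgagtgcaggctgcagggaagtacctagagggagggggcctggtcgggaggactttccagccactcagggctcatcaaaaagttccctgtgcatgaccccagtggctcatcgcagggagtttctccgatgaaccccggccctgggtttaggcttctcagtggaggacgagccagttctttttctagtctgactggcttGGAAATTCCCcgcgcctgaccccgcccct
Il6: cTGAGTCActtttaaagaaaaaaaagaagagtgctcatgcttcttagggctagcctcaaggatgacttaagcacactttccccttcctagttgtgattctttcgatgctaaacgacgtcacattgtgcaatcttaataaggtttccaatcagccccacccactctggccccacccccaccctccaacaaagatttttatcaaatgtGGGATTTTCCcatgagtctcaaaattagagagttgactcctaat
Saa3: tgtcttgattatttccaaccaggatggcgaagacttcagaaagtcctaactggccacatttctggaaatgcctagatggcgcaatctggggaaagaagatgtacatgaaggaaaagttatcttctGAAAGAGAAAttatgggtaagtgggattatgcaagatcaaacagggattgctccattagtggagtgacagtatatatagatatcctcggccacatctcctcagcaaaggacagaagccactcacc

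The NF-kB letters began 97 and 78 bases before the start of Cxcl2, 44 before that of Il6 and 29 before that of Nfkbia. The ISRE letters began 104 and 85 bases before the start of Ifit1, 213 before that of Cxcl10 and 125 before that of Saa3. Among the 9589 of 13252 tested genes with a promoter in the table, 1.8% held the NF-kB letters in this window, 3.4% the ISRE letters and 5.5% the AP-1 letters. The windows of Tnf, Il1b, Ccl3 and Egr2, scanned in the same way, held none of these motifs. The NF-kB letters were found in 0 of 9 genes with a promoter among those named below as higher at 4 h. Among those named as lower at 4 h they were found in 0 of 13. At a share of 1.8% over all genes, counts of 0 in sets this small are uninformative. The printed windows were picked as examples and do not stand for LPS genes in general, and a match is only a description of these bases. Fewer than 80% of the genes of each time class had a promoter, so the motif shares of the classes were not compared.

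A gene was called in a comparison when its adjusted p from limma on log2(CPM + 1) was below 0.05 and its fold change at least 2. Between 4 h and 24 h of LPS, 2642 of 13252 genes (19.9%) were called, of which 644 (4.86%) were higher at 4 h and 1998 (15.1%) lower. Against untreated cultures, 5073 genes (38.3%) were called at 4 h and 2740 (20.7%) at 24 h, and 922 genes (6.96%) were higher and 4151 (31.3%) lower at 4 h, while 892 (6.73%) were higher and 1848 (13.9%) lower at 24 h. The split between higher and lower depended on how cultures were scaled to each other. Of the genes called between 4 h and 24 h, 24.4% were higher at 4 h on the deposited scale, 38.3% after scaling by the median of ratios and 50.5% after quantile normalization. For 4 h against untreated the same shares were 18.2%, 31.6% and 46.8%. The median log2 difference over all genes between 4 h and 24 h was -0.34 on the deposited scale, and changes of single genes are to be read against it.

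The 3 contrasts sorted the genes that rose with LPS into time classes. Early genes, called higher at 4 h than in both untreated and LPS 24 h cultures, numbered 391 (2.95% of genes tested). Sustained genes, higher than untreated at both times and not called between them, numbered 330 (2.49%). Late genes, higher at 24 h than in untreated and LPS 4 h cultures, numbered 280 (2.11%). The class counts of gene lists and modules below are to be read beside these shares. Of the early genes, 135 were still higher than untreated at 24 h, 241 were not called and 15 were lower than untreated. Of the late genes, 201 were not called at 4 h against untreated, 48 were already higher and 31 were lower. Mirror classes of genes that fell held 1472 early, 1099 sustained and 192 late genes. When only plates A and B were used, with plate in the fit, 73.1% of the early, 68.2% of the sustained and 62.5% of the late genes fell in the same class, but only 47.6% of the genes lower early. That fit reused all 7 LPS 4 h cultures, so the agreement is partly built in and is no separate support for the classes.

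The early genes took up a large part of the mRNA at 4 h. Their summed share of all reads ranged from 15.8% to 17.7% (median 17.3%) in the 7 LPS 4 h cultures, from 2.64% to 5.13% (median 4.09%) in LPS 24 h cultures and from 1.13% to 1.93% (median 1.60%) in untreated cultures. The CCL2 and CCL7 cultures at 4 h lay at 1.59% to 2.09%, so the LPS 4 h cultures overlapped with none of these groups. The late genes had medians of 2.52% at 4 h, 9.19% at 24 h and 2.36% untreated. An untreated culture stood apart with a late-gene share of 10.1%, where the mitochondrial ribosomal RNA mt-Rnr1 alone made up 8.34% of reads. Without mt-Rnr1 the late genes summed to 1.53% to 3.69% in untreated, 2.43% to 2.79% in LPS 4 h and 7.56% to 9.95% in LPS 24 h cultures. Since the classes were defined in these cultures, the shares are a description and were not tested.

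**Figure D1:**
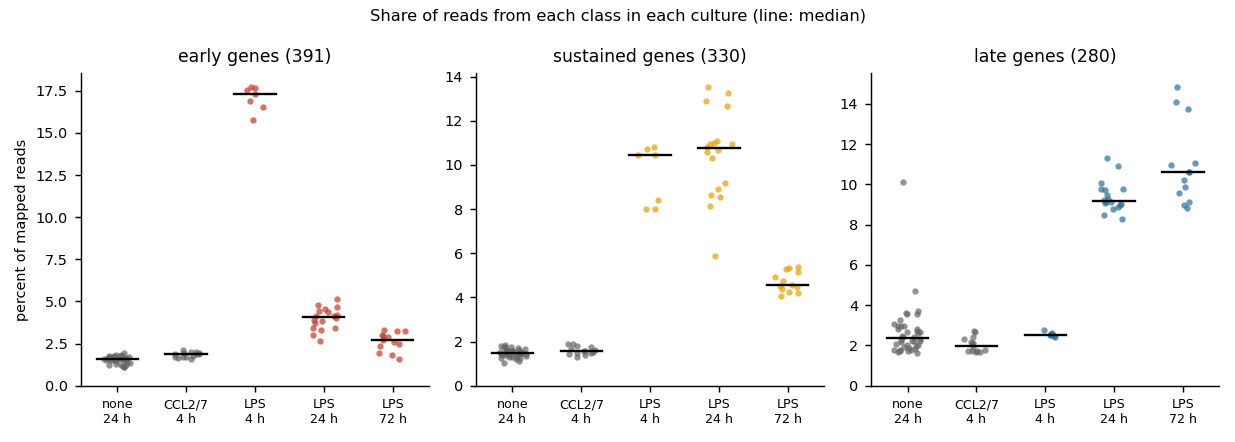
Share of all reads (percent) taken by the early, sustained and late genes in each culture, by group. Points are cultures and lines are medians, and the early genes reach medians of 17.3% at 4 h of LPS and 4.09% at 24 h.

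Among the cytokines, those that were early included Tnf, Il27, Il15, Csf1, Ifnb1, Tnfsf9, Il12b and Il23a, while Il1a, Il1b, Il6, Il12a, Ebi3 and Il18 were sustained and Il1rn, Il10, Csf3 and Inhba were late. Of 21 cytokines tested, 16 were higher at 4 h than untreated and none were lower, with a median log2 fold change of 2.98 against -0.62 over all genes. Over all genes 6.96% were higher and 31.3% lower. Between 4 h and 24 h, 8 of the cytokines were higher at 4 h and 4 lower, beside 4.86% and 15.1% of all genes. Tnf, the tumor necrosis factor, ranged from 13380 to 25710 CPM (median 16740) after 4 h of LPS, from 597 to 2199 (median 1394) after 24 h and from 26.2 to 410 (median 89.8) untreated. The groups did not overlap, and the log2 fold change of 4 h over 24 h was 3.59 ± 0.41 (SE, adjusted p = 7.02e-13). The plot of genes by culture shows this separation.

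Il27 codes for a subunit of interleukin-27, a cytokine of antigen-presenting cells whose other subunit is Ebi3. It was at 1305 to 3790 CPM (median 2825) after 4 h of LPS, 42.3 to 174 (median 67.9) after 24 h and at most 34.5 untreated. Its log2 fold change of 5.01 ± 0.42 (adjusted p = 3.56e-21) lay among the 15 largest of genes without overlap between the 2 times. Apobr, which codes for a receptor of apolipoprotein B48, reached 507 to 1710 CPM at 4 h and 5.16 to 109 at 24 h (log2 fold change 5.15 ± 0.34, adjusted p = 4.38e-29). Its annotated end on chromosome 7 (126584942 to 126589112, GRCm38) overlaps the gene of Il27 on the other strand (126589010 to 126594941), so reads between them are uncertain.

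Ifnb1, the gene of interferon beta, was low but separate. It ranged from 10.9 to 33.3 CPM (median 20.1) at 4 h, was listed at 0 in 11 of 18 LPS 24 h cultures and in 31 of 40 untreated cultures, and reached at most 3.09 CPM there. The log2 fold change between 4 h and 24 h was 4.08 ± 0.23 (adjusted p = 5.98e-36). Il15, a growth factor of NK cells and T cells, was at 215 to 557 CPM at 4 h and 8.64 to 73.7 at 24 h (log2 fold change 3.18 ± 0.43, adjusted p = 6.87e-10). Csf1, a ligand of the receptor on which microglia depend for survival, was at 33.1 to 144 CPM at 4 h and at most 14.2 at 24 h. Tnfsf9, the ligand of the T cell receptor 4-1BB, was at 32.4 to 374 CPM against at most 20.1, and differed between the plates, with 240 to 374 CPM on plate A and 32.4 to 127 on plate B. Ifnb1, Il15, Csf1 and Tnfsf9 each separated the 2 times without overlap of the cultures.

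Il1a, Il1b and Il6, coding for interleukin-1 alpha, interleukin-1 beta and interleukin-6, were high at both LPS times. Il1a ranged from 2096 to 5185 CPM (median 2570) at 4 h and from 1224 to 5470 (median 2630) at 24 h, with at most 192 CPM untreated. Il1b had medians of 1401 and 814 CPM at 4 h and 24 h and of 9.22 CPM untreated. Il6 had medians of 66.1, 47.7 and 0.631 CPM. All 3 overlapped between the LPS times and none was called between them, with log2 differences of 0.23 ± 0.59, 0.50 ± 0.51 and 0.30 ± 0.43 (SE), so that intervals of this width do not exclude 2-fold differences. Il1rn, the antagonist of the interleukin-1 receptor, ranged instead from 74.5 to 279 CPM (median 151) at 4 h and from 301 to 1852 (median 777) at 24 h, with at most 51.1 untreated. It was lower at 4 h than at 24 h by a log2 fold change of -2.38 ± 0.38 (adjusted p = 2.18e-07) without overlap. Il10, which restrains inflammatory cytokines, had a median of 0.689 CPM at 4 h and of 10.7 at 24 h (log2 fold change -2.51 ± 0.58, adjusted p = 0.00037), but was not called within plates A and B (-0.71, adjusted p = 0.458).

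**Figure D2:**
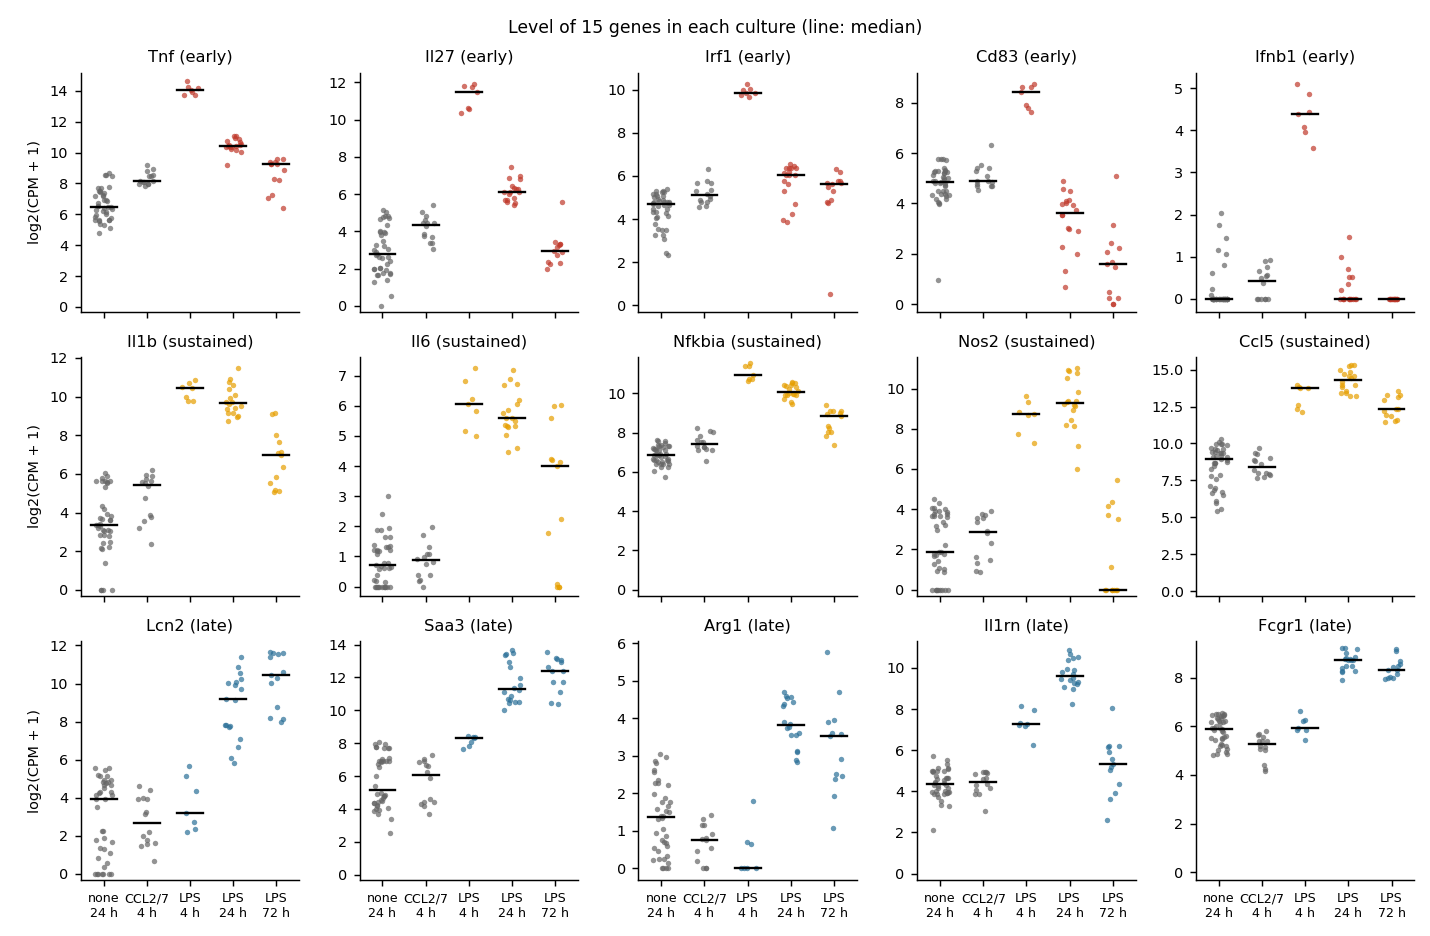
Level of 15 genes, as log2(CPM + 1), in cultures that were untreated for 24 h, given CCL2 or CCL7 for 4 h, or given LPS for 4 h, 24 h or 72 h. Points are cultures and lines are medians. Tnf lies between 13380 and 25710 CPM in the LPS 4 h cultures and at 2199 or below in the LPS 24 h cultures, and Lcn2 lies at most at 49.3 CPM at 4 h and at least at 55.6 CPM at 24 h.

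The chemokines, which attract leukocytes, were raised nearly as a whole. Of 19 tested, 18 were higher than untreated at 4 h and the same number at 24 h, beside 6.96% and 6.73% of all genes. Cxcl13, at a mean of 2.201 CPM at 4 h, was not called at 4 h, and Cx3cl1 was not called at 24 h. By time class 9 were early and 9 sustained. The count of 9 higher and 0 lower at 4 h than at 24 h became 10 higher and 3 lower within plates A and B. It was 6 higher and 6 lower in the cultures with LPS and other agents described below. Over all genes 4.86% were higher and 15.1% lower, within plates A and B 686 and 1348 of 11978, and with other agents 8.16% and 7.97%. In the test of the difference of LPS effects, also described below, 3 of the 19 were called, all in favour of 4 h, beside 3.48% of all genes. Ccl4, which attracts monocytes and T cells, was at 7126 to 10520 CPM (median 8860) after 4 h and at 270 to 2044 (median 921) after 24 h, without overlap (log2 fold change 3.18 ± 0.44, adjusted p = 1.85e-09). Ccl3, a closely related chemokine, was at 1480 to 2084 CPM and 186 to 775 CPM. Ccl5, which attracts T cells, was sustained, with medians of 13590 CPM at 4 h, 20110 at 24 h and 489 untreated, and it was lower at 4 h within plates A and B (log2 fold change -1.20, adjusted p = 0.025).

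Cxcl10, a ligand of CXCR3 induced by interferons, ranged from 2796 to 4021 CPM (median 3318) at 4 h, from 39.2 to 872 (median 570) at 24 h and up to 76.9 untreated (4 h over 24 h log2 fold change 2.91 ± 0.55, adjusted p = 1.12e-05). Cxcl2, which attracts neutrophils through CXCR2, ranged from 2660 to 5818 CPM (median 3474) at 4 h and from 24.3 to 5332 (median 500) at 24 h, so the groups overlapped. Its log2 fold change of 3.35 ± 0.77 (adjusted p = 0.000386) came down to 1.61 (adjusted p = 0.00132) when only plates A and B were used, and was 2.67 on plate A and 0.56 on plate B. Cx3cl1, or fractalkine, the ligand of the microglial receptor Cx3cr1, was at 16.7 to 91.7 CPM at 4 h and at most 2.62 CPM at 24 h, listed at 0 in 23 of 40 untreated cultures.

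The NF-kB list had the largest share of early genes among the lists with 20 or more members. Of 21 subunits and feedback inhibitors tested, 14 were early, 4 sustained and 1 late. At 4 h 19 were higher than untreated, beside 6.96% of all genes. The median log2 fold change was 3.23, beside -0.62 over all genes. The subunits Nfkb1, Nfkb2, Rel, Rela and Relb were all early. Rela rose modestly, from 17.3 to 74.4 CPM untreated to 67.8 to 136 CPM at 4 h, and its difference from 24 h of 1.35 ± 0.28 (adjusted p = 8.05e-05) was not called within plates A and B (0.81, adjusted p = 0.0935). The inhibitors Nfkbib, Nfkbid and Nfkbie were early too, and Nfkbie, which codes for IkB epsilon, was at 93.8 to 240 CPM at 4 h and 1.61 to 33.5 at 24 h (log2 fold change 3.10 ± 0.48, adjusted p = 8.04e-08). Tnfaip3, coding for the ubiquitin-editing enzyme A20, ranged from 651 to 983 CPM at 4 h and from 64.1 to 480 at 24 h.

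Nfkbia, coding for IkB alpha, was at 1612 to 3005 CPM (median 2000) at 4 h, 716 to 1527 (median 1080) at 24 h and 53.0 to 199 untreated. These groups did not overlap, but its log2 difference between the LPS times, 0.94 ± 0.21 (adjusted p = 0.000212), stayed below 2-fold, and it counted as sustained. It was called higher at 4 h after scaling by the median of ratios and with plate as a term. Irak3, an inhibitor at the receptor complex, was the late member, at 17.9 to 64.8 CPM at 4 h and 110 to 304 at 24 h (log2 fold change -2.64 ± 0.34, adjusted p = 1.92e-10). The list had 14 genes higher at 4 h than at 24 h over all plates and 10 within plates A and B. Over all genes these were 4.86% and 686 of 11978.

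Of the 21 genes of the receptor and its proximal signalling, 8 were higher and 4 lower than untreated at 4 h (38.1% and 19%, beside 6.96% and 31.3% of all genes), with a median log2 fold change of -0.10 beside -0.62 over all genes. Tlr4 itself was low, at 0 to 14.3 CPM at 4 h, 2.03 to 20.8 at 24 h and 0.368 to 29.3 untreated, and was not called between the LPS times. Tlr2, the receptor of bacterial lipoproteins, was early, at 252 to 656 CPM at 4 h, 28.5 to 166 at 24 h and 8.84 to 66.8 untreated (4 h over 24 h log2 fold change 2.25 ± 0.38, adjusted p = 7.62e-07). Cd14, Myd88, Map3k8, Tlr1 and Tlr3 were sustained. Ikbkg, coding for NEMO, the regulatory subunit of the IkB kinase, was lower at 4 h, at 3.04 to 34.5 CPM against 42.9 to 153 at 24 h (log2 fold change -2.45 ± 0.27, adjusted p = 1.23e-13).

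All 28 genes of the type I interferon list were higher than untreated at both 4 h and 24 h, with medians of 3.53 and 3.81 on the log2 scale. This held also after scaling by the median of ratios or quantile normalization. Over all genes 6.96% and 6.73% were higher at these times, with medians of -0.62 and -0.24. The times of the 28 genes differed: 6 were early, 17 sustained and 5 late. Ifit1, which binds foreign RNA, was at 6849 to 16020 CPM (median 9161) at 4 h, 1790 to 3276 (median 2688) at 24 h and 11.8 to 448 untreated, without overlap (4 h over 24 h log2 fold change 2.00 ± 0.45, adjusted p = 0.000277). This call was lost with plate as a term over all plates, but held within plates A and B (2.29, adjusted p = 5.64e-14). Rsad2, coding for the antiviral enzyme viperin, was at 6001 to 11680 CPM and 607 to 3585 CPM at the 2 times. Irf7, a transcription factor that raises interferon genes, went the other way. It ranged from 193 to 699 CPM at 4 h and from 724 to 1762 at 24 h (log2 fold change -1.66 ± 0.38, adjusted p = 0.0003), without overlap.

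Among 21 genes linked to interferon gamma, 7 were early, 8 sustained and 2 late. Irf1, a transcription factor of the interferon and NF-kB response, was at 807 to 1247 CPM (median 914) at 4 h, 13.7 to 91.7 (median 64.5) at 24 h and 3.96 to 41.2 untreated (4 h over 24 h log2 fold change 4.23 ± 0.35, adjusted p = 3.20e-21). Irf8, a factor of the macrophage lineage, was at 516 to 3048 CPM at 4 h, 74.0 to 236 at 24 h and 165 to 821 untreated, and so it fell below untreated at 24 h (-1.30 ± 0.16, adjusted p = 7.49e-13). The cultures of the plates did not overlap for Irf8 at 4 h, with 516 to 842 CPM on plate A and 2351 to 3048 on plate B, yet the log2 fold change of 4 h over 24 h was 2.63 and 3.68 on them. The GTPases Gbp5, Iigp1, Igtp, Irgm1 and Irgm2 were early, while Gbp2, Gbp3, Gbp6 and Gbp7 were sustained. The late members were H2-Ab1 and B2m, of antigen presentation.

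**Figure D3:**
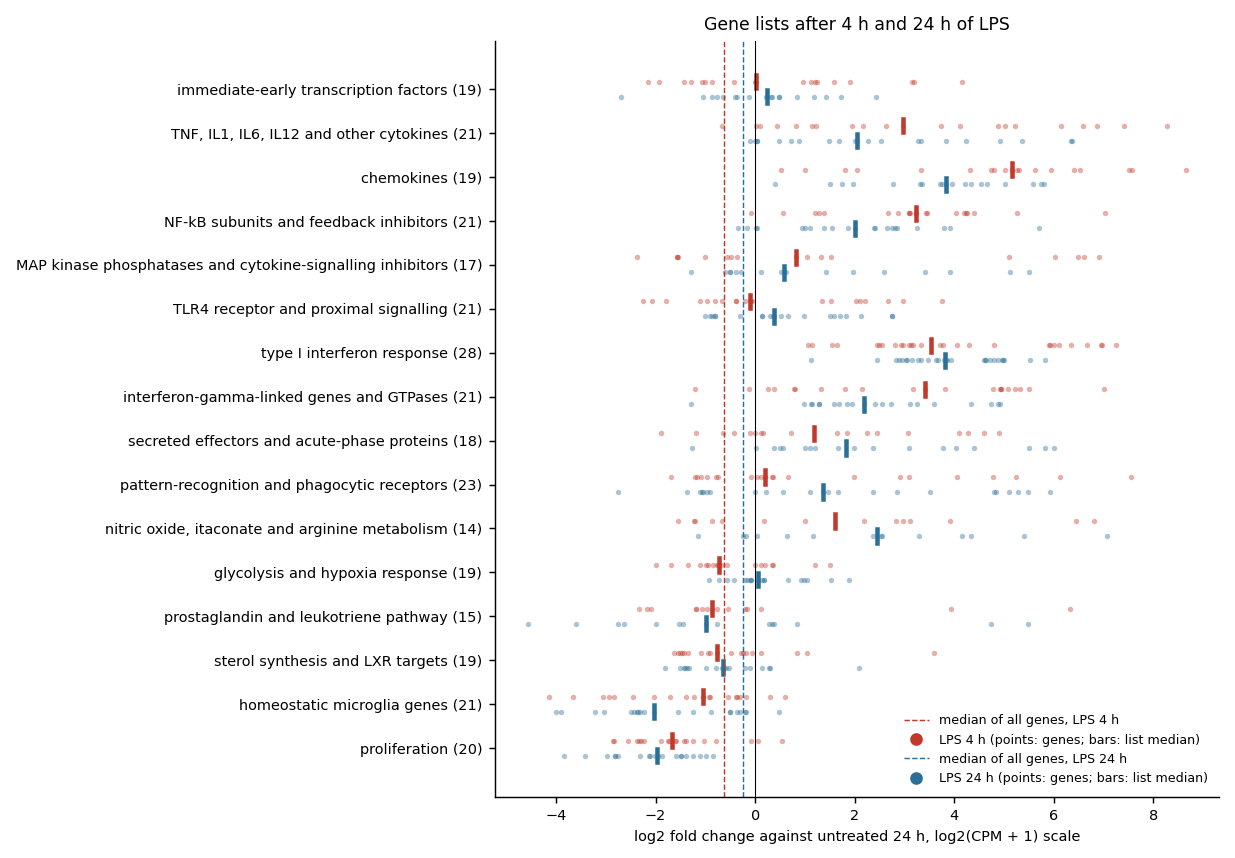
Log2 fold change against untreated cultures of each tested member of 16 gene lists (points, on the log2(CPM + 1) scale) after 4 h (red) and 24 h (blue) of LPS, with list medians as bars and the medians of all genes as dashed lines. All 28 type I interferon genes lie above 0 at both times, and the median of the NF-kB list is 3.23 at 4 h.

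The immediate-early transcription factors, which respond within minutes in many cells, included genes that rose and genes that fell at 4 h. Of 19 tested, 8 were higher and 5 lower than untreated (42.1% and 26.3%, beside 6.96% and 31.3% of all genes), with a median log2 fold change of 0.03 beside -0.62 over all genes. After scaling by the median of ratios and after quantile normalization 9 were higher and 2 lower. Junb, a subunit of AP-1, was early, at 443 to 1218 CPM at 4 h, 136 to 528 at 24 h and 27.2 to 159 untreated. Maff, a small Maf factor, was at 68.2 to 247 CPM at 4 h and at most 45.6 at 24 h (log2 fold change 3.68 ± 0.55, adjusted p = 1.83e-08), and Nr4a3, an orphan nuclear receptor, at 3.45 to 16.8 CPM against at most 1.75. Fos, the partner of Jun proteins in AP-1, was lower at 4 h, with a median of 6.52 CPM against 28.5 at 24 h and 18.4 untreated (4 h over 24 h log2 fold change -2.62 ± 0.47, adjusted p = 3.48e-06), though the groups overlapped. Dusp1, a MAP kinase phosphatase, had medians of 12.01, 58.98 and 16.6 CPM and was late.

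The 15 genes with the largest rise of 4 h over 24 h, among those with no overlap, were Gm13889, Akap2, Adamts4, Apobr, Il27, Cd83, Col27a1, Cx3cl1, Phldb1, Cish, Tnfsf9, Irf1, Csrnp1, A630072M18Rik and Ifnb1. Over all genes tested, 158 genes (1.19%) were called higher at 4 h without overlap between the 7 and 18 cultures and 124 (0.936%) were called lower. Gm13889, an uncharacterised transcript, led the list at 126 to 419 CPM at 4 h, while it was listed at 0 in 11 of 18 LPS 24 h cultures and reached at most 5.04 CPM there (log2 fold change 7.58 ± 0.34, adjusted p = 2.14e-46). Adamts4, a protease of the extracellular matrix, was at 102 to 273 CPM at 4 h and at most 15.7 CPM at 24 h. Cish, a feedback inhibitor of cytokine receptors that use STAT5, was at 5.62 to 71.4 CPM at 4 h and at most 5.04 at 24 h.

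Of these 15 genes, 3 were called lower at 24 h than in untreated cultures, beside 13.9% of all genes. The choice of genes by a large rise of 4 h over 24 h favours low levels at 24 h. Cd83, a marker of activated antigen-presenting cells, was at 197 to 426 CPM at 4 h, 0.605 to 28.95 at 24 h and 0.919 to 53.9 untreated, with a log2 fold change of -1.43 ± 0.24 (adjusted p = 2.25e-07) at 24 h against untreated. Akap2, an anchor protein of protein kinase A, was at 159 to 398 CPM at 4 h and lower than untreated at 24 h by -1.20 ± 0.38 (adjusted p = 0.00679). Phldb1 was lower by -1.14 ± 0.28 (adjusted p = 0.000375), a call lost after scaling by the median of ratios and after quantile normalization. The cultures of plates A and B did not overlap for 11 of the 30 genes named in both directions, against 16.9% of all genes tested, and genes over 5 CPM numbered 7781 to 8180 on plate A and 6584 to 6962 on plate B. All 30 genes kept their direction and call in a fit of plates A and B alone. Their direction there was fixed in advance, because they were chosen without overlap between the LPS times in these same cultures.

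At the other end were genes lower at 4 h than at 24 h, namely Lcn2, Siglece, Arhgap27, Clec4a3, Per2, Upp1, Agfg2, Tor4a, Arid3b, Cep83, Cd300lf, Saa3, Arg1, Ms4a4c and Slfn4. Lcn2, coding for lipocalin-2, which withholds iron from bacteria, was at 3.56 to 49.3 CPM (median 8.27) at 4 h, 55.6 to 2697 (median 574) at 24 h and at most 46.2 untreated. Its log2 fold change of 4 h over 24 h was -5.11 ± 0.65 (adjusted p = 8.62e-11), and that of 4 h over untreated, 0.72 ± 0.60 (adjusted p = 0.321), was not called. After quantile normalization Lcn2 was called higher than untreated at 4 h. The plates did not overlap for Lcn2 at 4 h, with 19.25 to 49.3 CPM on plate A and 3.56 to 8.27 on plate B. Saa3, an acute-phase serum amyloid A protein, was already raised at 4 h, at 202 to 341 CPM (median 314) against 4.92 to 272 untreated (median 35.6), and reached 1059 to 12800 CPM (median 2540) at 24 h. Siglece, an inhibitory receptor for sialic acids, was at 1.43 to 25.6 CPM at 4 h and 36.7 to 304 at 24 h, while Arg1, coding for arginase 1, was listed at 0 in 4 of 7 cultures at 4 h and lay at 6.12 to 24.9 CPM at 24 h.

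Slfn4, an interferon-regulated Schlafen gene, stood at 21.03 to 73.55 CPM at 4 h and 208 to 1002 CPM at 24 h, against at most 41.1 untreated. Some of these genes first fell with LPS. Arhgap27, a GTPase-activating protein, was at 0.248 to 2.496 CPM at 4 h, 10.5 to 73.7 at 24 h and up to 65.8 untreated, so it was lower than untreated at 4 h (-2.49 ± 0.36, adjusted p = 2.78e-09) and higher at 24 h (1.51 ± 0.25, adjusted p = 1.30e-07). Clec4a3, Tor4a, Cep83 and Cd300lf had the same 2 signs, with log2 fold changes of -2.01, -2.64, -1.63 and -1.84 at 4 h and 1.94, 1.07, 2.02 and 1.75 at 24 h against untreated. The calls of Cep83 and Cd300lf at 4 h were lost after quantile normalization. Per2, a repressor of the circadian clock, was listed at 0 in 4 of 7 cultures at 4 h and had medians of 16.6 CPM at 24 h and 11.7 untreated.

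Of 18 secreted effectors and acute-phase proteins, 6 were late (Saa3, Lcn2, Cfb, Cp, Timp1 and Thbs1), 4 sustained and 2 early. Over all genes 2.11% were late, 2.49% sustained and 2.95% early. The median log2 fold change of the list against untreated was 1.18 at 4 h and 1.83 at 24 h, beside -0.62 and -0.24 over all genes. Plaur, the urokinase receptor, was early. Of 23 pattern-recognition and phagocytic receptors, 7 were late, among them the formyl peptide receptors Fpr1 and Fpr2, the scavenger receptor Marco and the high-affinity IgG receptor Fcgr1. Fcgr1 was at 42.4 to 96.5 CPM at 4 h, the range of untreated cultures (27.6 to 93.3), and at 235 to 601 CPM at 24 h (log2 fold change -2.66 ± 0.23, adjusted p = 1.67e-19). Cd40, a receptor for T cell help, was early, at 601 to 1696 CPM against 27.2 to 352 at 24 h.

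Among genes of nitric oxide, itaconate and arginine metabolism, Nos2, the inducible nitric oxide synthase, was sustained, with medians of 429 CPM at 4 h, 617 at 24 h and 2.64 untreated. Irg1, which makes itaconate, was early at 824 to 2671 CPM against 336 to 910 at 24 h (log2 fold change 1.42 ± 0.45, adjusted p = 0.0112), a call lost with plate as a term. Hmox1, the heme oxygenase, was at 91.6 to 325 CPM at 4 h, 674 to 2224 at 24 h and 265 to 1819 untreated, so it was lower than untreated at 4 h (-1.56 ± 0.21, adjusted p = 2.21e-10) and higher at 24 h (1.15 ± 0.15, adjusted p = 9.26e-12), the latter call being lost after quantile normalization. In the prostaglandin pathway Ptgs2, the inducible cyclooxygenase, was at 126 to 218 CPM at 4 h and 23.04 to 268 at 24 h, and its early call (1.59 ± 0.45, adjusted p = 0.00423) was not made within plates A and B (0.85, adjusted p = 0.248). Ptges, the prostaglandin E synthase downstream of it, was late, with medians of 166 and 529 CPM, and Hpgd, which breaks prostaglandins down, fell from a median of 62.0 CPM untreated to 19.7 at 4 h and 1.78 at 24 h. Of 19 genes of glycolysis and the hypoxia response, 2 were higher and 4 lower than untreated at 4 h (10.5% and 21.1%, beside 6.96% and 31.3% of all genes). Their median was -0.72 beside -0.62 over all genes. Between 4 h and 24 h, 1 was higher and 5 lower at 4 h (5.3% and 26.3%, beside 4.86% and 15.1% of all genes), with a median of -0.70 beside -0.34. Within plates A and B none were higher and 12 lower at 4 h, with a median of -1.22 beside -0.27 over all genes.

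Many homeostatic and proliferation genes were lower at both times. Of 21 homeostatic microglia genes, 12 were lower than untreated at 4 h and 13 at 24 h and none were higher, with 10 sustained lower. The median log2 fold change of the list was -1.06 at 4 h, beside -0.62 over all genes. After scaling by the median of ratios 8 were lower at 4 h, and after quantile normalization 11 were lower and 1, Sall1, was higher. Cx3cr1 was at 8.26 to 85.2 CPM at 4 h, 5.995 to 74.5 at 24 h and 33.1 to 529 untreated, and was not called between the LPS times (-0.44 ± 0.55, adjusted p = 0.616). Of 20 proliferation genes, 15 were lower than untreated at 4 h and 18 at 24 h, and 14 were sustained lower, among them Top2a, Cdk1 and the replication licensing factors Mcm2, Mcm3, Mcm4 and Mcm5. The count at 4 h was 10 after scaling by the median of ratios, which lost the call of Top2a, and 9 after quantile normalization, which lost that of Mcm3, while at 24 h 17 were lower under both. Against the CCL2 and CCL7 cultures at 4 h, 8 of the 20 (40%) were lower, beside 27.3% of all genes, and the list had a median of -0.58 in those chemokine cultures against untreated ones, with no member called. These counts stand beside the 31.3% and 13.9% of all genes that were lower than untreated at 4 h and 24 h.

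The CCL2 and CCL7 cultures gave a reference at 4 h. Against them, 4513 genes (34.1%) were called after 4 h of LPS, 899 (6.78%) higher and 3614 (27.3%) lower. Between these chemokine cultures and untreated ones at 24 h, limma called 12 of 13252 genes (0.0906%), 11 higher (0.083%) and 1 lower (0.00755%), with 1121 genes at an unadjusted p below 0.05. The 11 were Cd40, Cxcl10, Edn1, Gm26549, Gm8210, Hmgxb3, Il27, Irg1, Rsad2, Tnf and Tnfaip2, and the lower one was Nanos1. Of these, 8 were early genes. Tnf was at 228 to 597 CPM (median 283) in the chemokine cultures, which overlapped with the untreated cultures (26.2 to 410, median 89.8) and lay below all LPS 4 h cultures. The early genes had a median log2 fold change of 2.37 for LPS 4 h over the chemokines at 4 h and of 2.45 over untreated at 24 h, 2 contrasts that share the LPS cultures. To separate time from LPS, the LPS 4 h over chemokine 4 h difference was set against the LPS 24 h over untreated 24 h difference, which share no cultures. This difference of effects was called for 1775 genes (13.4%), 461 (3.48%) in favour of 4 h, among them 265 of the 391 early genes, and 1314 (9.92%) in favour of 24 h, among them 218 of the 280 late genes. Because the same LPS cultures sorted the genes, these last counts describe the classes and are no separate support for them.

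**Figure D4:**
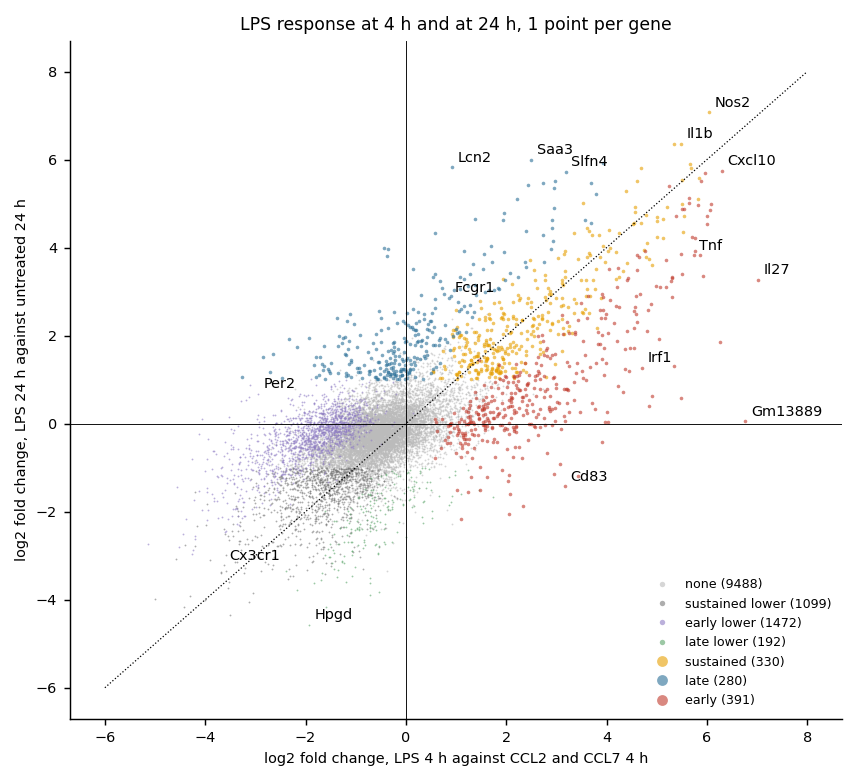
Log2 fold change of LPS over CCL2 and CCL7 at 4 h (x axis) against that of LPS over untreated at 24 h (y axis) for each gene tested, with early, sustained and late genes marked. The axes share no culture, and Gm13889 and Il27 lie far to the right while Lcn2 lies near the top.

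Cultures outside the contrasts that sorted the genes were LPS combined with other agents. The agents at 4 h (ATP, nicotine, norepinephrine) differed from those at 24 h (GABA, estradiol, minocycline). These cultures were in the same fit, so they shared its gene filter and variance estimates. All 22 cultures at 4 h stood on plates A (n = 10) and B (n = 12), the plates of the sorting cultures, and of the 22 at 24 h 11 stood on plate A and none on plate B, so time and plate were partly mixed. Between them 2137 genes (16.1%) were called, 1081 (8.16%) higher and 1056 (7.97%) lower at 4 h. Of the 391 early genes, 301 (77.0%) were higher and 1 was lower, with a median log2 fold change of 1.56 beside -0.05 over all genes. Of the 280 late genes, 192 (68.6%) were lower and 3 higher, with a median of -1.42, and of the sustained genes 57 were higher and 38 lower, with a median of 0.17. Within plate A alone, a comparison added after seeing the data (10 cultures against 11), 961 of 10148 genes (9.47%) were higher and 845 (8.33%) lower at 4 h. There 254 of 358 early genes tested were higher and 1 was lower (median 1.46), and 168 of 251 late genes were lower and 2 higher (median -1.45). Gm13889 was at 8.24 to 155 CPM at 4 h and at most 4.56 at 24 h in these cultures, and Irf8 at 159 to 1019 and 118 to 262 CPM (log2 fold changes 4.79 and 1.31, adjusted p = 4.91e-43 and 2.10e-11). Lcn2 was at 7.59 to 172 and 347 to 5208 CPM (-4.83, adjusted p = 7.26e-19). Ccl3 (0.53, adjusted p = 0.137), Cd300lf (-0.92, adjusted p = 0.0107) and Agfg2 (-0.88, adjusted p = 0.0387) were not called here.

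After 72 h of LPS, against untreated cultures at 72 h, 2756 genes (20.8%) were called, 616 (4.65%) higher and 2140 (16.1%) lower. Of the early genes 75 (19.2%) were higher and 28 lower, with a median log2 fold change of 0.03. Of the sustained genes 182 (55.2%) and of the late genes 154 were higher, with medians of 1.13 and 1.16, beside -0.31 over all genes. Tnf was at 85.8 to 763 CPM after 72 h of LPS and at most 123 untreated, while Lcn2 was at 255 to 3171 CPM against at most 62.8. Saa3, at 1347 to 11830 CPM, did not overlap with untreated cultures (14.8 to 558 CPM). Ifnb1 was listed at 0 in all 13 cultures with LPS at 72 h and in all 25 untreated ones.

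In microglia of LPS-injected mice, 751 of 9012 genes tested (8.33%) were called, 477 (5.29%) higher than after PBS and 274 (3.04%) lower. Of 267 early genes that were also tested in mice, 117 were higher and 3 lower, with a median log2 fold change of 0.74. Of 224 sustained genes, 92 were higher and none were lower (median 0.68), and of 160 late genes 35 were higher (median 0.10), beside a median of -0.19 over all genes in both fits. Tnf was at 1907 to 2975 CPM with LPS and 64.8 to 85.9 with PBS (log2 fold change 4.94 ± 0.15, adjusted p = 1.72e-11), and Cd83 at 926 to 1106 and 63.2 to 86.7 CPM (3.69 ± 0.13, adjusted p = 7.49e-11). Lcn2, late in culture, was at 119 to 283 CPM with LPS and 28.6 to 57.8 with PBS (2.52 ± 0.26, adjusted p = 6.38e-06).

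Other genes of the early class were not called in mice. Gm13889, the leading gene in culture, was at 5.74 to 27.5 CPM with LPS and 12.99 to 29.5 with PBS (-0.24 ± 0.39, adjusted p = 0.68), and Cx3cl1 at 6.86 to 9.77 and 2.17 to 10.4 CPM. Irf8 was at 788 to 1016 and 847 to 980 CPM (0.02 ± 0.12, adjusted p = 0.91). Of the 16 immediate-early factors tested in mice, 13 were higher with LPS (81.2%, beside 5.2% of all genes in both fits), with a median log2 fold change of 2.76. Fos was at 60.5 to 69.5 CPM with LPS and 1.44 to 4.32 with PBS, and Egr1 at 357 to 536 and 7.361 to 11.02 CPM. In culture at 4 h Fos had been lower than untreated. Cell isolation, the route of LPS and the matched 4 h control differed between the mice and the cultures, and a difference between them was not tested. The header of the mouse table names other durations than the labels, which were followed here.

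**Figure D5:**
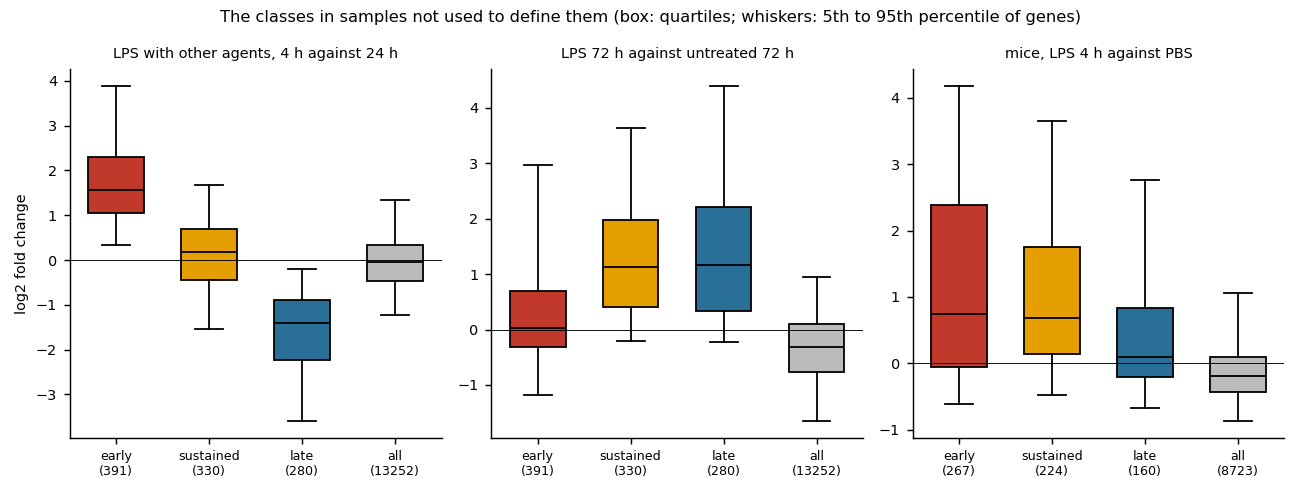
Log2 fold changes of the early, sustained and late genes in samples outside the contrasts that sorted them, as boxplots (boxes are quartiles and whiskers the percentiles named in the title). The comparisons are LPS with other agents at 4 h against 24 h, LPS at 72 h against untreated, and mice given LPS against PBS. The early genes have medians of 1.56, 0.03 and 0.74 in these comparisons and the late genes -1.42, 1.16 and 0.10.

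Gene modules that the study formed from cultures of this series were also sorted by time, which is a description, since they were formed on the same samples and the 5 given here were chosen after their values were seen. All 39 tested genes of PU_turquoise and 17 of 20 of PI_blue were early, as were 17 of 29 of CY_red, beside 2.95% of all genes. In BR_turquoise 83 of 148 genes were sustained (2.49% of all genes), and in YE_turquoise 36 of 107 were late (2.11% of all genes) while 3 were early. In mice given LPS, 18 of 28 tested genes of PU_turquoise, 18 of 26 of CY_red and 8 of 14 of PI_blue were higher than with PBS. For BR_turquoise this held for 35 of 119 and for YE_turquoise for 17 of 87, beside 5.2% of all genes in both fits.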

How the data were processed

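The authors assigned reads to Ensembl build 81 transcripts with salmon 0.7.1 (the labels name the build mm8), summed them per gene, divided by the mapped reads and deposited CPM. The study's methods call these values TPM, which the tests were planned for, but no length correction is described. Only 72.8% to 87.1% of a culture's low values came within 0.1 of whole reads, so counts were not rebuilt. Depth is 1e6 divided by the step between low values. Cultures under 1 M mapped reads or with too few expressed genes were removed by the authors, so the gene numbers above are of cultures that passed this cut. CPM are relative, so strong rises lower other genes.

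Genes over 5 CPM in at least 4 samples (13252 in cultures, 9012 in mice) were fitted on log2(CPM + 1), which understates changes of low genes, with limma 3.58.1 in R 4.3.3 (trend on mean expression, Benjamini-Hochberg adjustment). One model with a mean per group held all 161 cultures used, and another the 8 mice. Figures and summaries used Python 3.11.15, numpy 2.4.6, pandas 2.3.3 and matplotlib 3.10.9. Named genes were the 15 largest changes in each direction between 4 h and 24 h, called, with a mean of at least 10 CPM in the higher group and no overlap, plus members of 16 gene lists and genes needed for a count. The members and lists were chosen with earlier results of these data known. The cultures stood on plates that were entered as a term in an alternative. Gene positions are GENCODE M21 on GRCm38 and promoters are from RefSeq. The header of the mouse table gives other durations than the labels, which were followed. No interval was attached to single values, and no count model was used.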

Additional observations from a re-analysis of the deposited data

Results flagged for a closer look

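In 80 pairs of a named gene and a group of 4 to 10 samples, 7 had a sample that stood apart by Dixon's criterion at the 95% level, which chance alone gives in about 1 of 20 groups. Among the LPS 4 h cultures, Cish was at 5.62 CPM in replicate 4 (the others at 32.6 to 71.4), Arid3b at 3.35 CPM in replicate 1 (the others at most 0.832) and Arg1 at 2.496 CPM in replicate 3 (the others at most 0.621). Among mice given LPS, Gm13889 was at 5.74 CPM in a mouse (the others at 21.5 to 27.5), Cx3cl1 at 9.77 CPM in a mouse (the others at 6.86 to 7.13) and Lcn2 at 119 CPM in a mouse (the others at 256 to 283). Among mice given PBS, Per2 was at 5.34 CPM in a mouse (the others at 6.67 to 6.93).

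The effect of LPS at 4 h, measured against CCL2 and CCL7, differed from its effect at 24 h, measured against untreated cultures, in 1775 genes by a test of the difference itself in limma (461 higher and 1314 lower at 4 h). The reference groups differ in the chemokine given as well as in time, and these cannot be told apart.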

How the results depend on the processing

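All 30 named genes kept their direction and call in every alternative that gave a value. They were chosen for large changes without overlap in the same cultures, so this is no separate support for them. In the alternatives 251 counts over genes stayed within 1.5 times of the main count while 24 did not. With a pseudocount of 5 the counts fell to 984 (4 h lower than 24 h), 2791 (4 h against untreated), 1624 (24 h against untreated), 2767 (4 h against CCL2 and CCL7), 6 (CCL2 and CCL7 against untreated), 1154 (other agents), 1326 (72 h) and 185 (late genes). Quantile normalization gave 1086 genes higher and 1063 lower at 4 h than at 24 h, 3359 against untreated, 2964 against the chemokines, 24 for the chemokines and 654 early genes. Without a minimum fold the counts were 5162 (24 h), 4031 (other agents), 4242 (72 h) and 535 (late genes). Library pool as a term left 928 genes lower at 4 h than at 24 h. For the chemokines against untreated, plate as a term gave 5, pool 4, the rank-sum test 6, a fit of only the groups compared 19 and plates A and B, an alternative chosen after seeing the data, 3. Leaving out each LPS 4 h culture in turn gave 595 to 651 genes higher and 1578 to 2216 lower at 4 h than at 24 h, 373 to 390 early, 333 to 347 sustained and 257 to 286 late genes, and leaving out each mouse 640 to 741 genes. No paired analysis was possible because the labels carry no replicate numbers. The causes were not tested. Depth limits genes of a few CPM, since 1 CPM was 1.20 reads in the shallowest LPS 4 h culture.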
